A study of Homo sapiens with 3 samples.

Results

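The genes described here encode the protein-folding and quality-control machinery of the endoplasmic reticulum (ER), namely chaperones, disulfide isomerases and oxidases, the translocation channel and the components of ER-associated degradation. They were taken from a list of 43 gene symbols, and 42 of them were found among the 19208 genes that could be named on the arrays. PDIA3, which encodes the disulfide isomerase ERp57, was present only in transcript clusters annotated to PDIA3 and PDIA3P together, so no value was assigned to it. Total RNA of LNCaP cells was hybridized to 3 Affymetrix Human Gene ST arrays, with a single array for each condition. LNCaP is an established human prostate cancer line that responds to androgen, and BP is *n*-butylidenephthalide, a compound isolated from *Angelica sinensis*. The control array carries only the name of the cell line, without a treatment or a harvest time, although the title of the series names DMSO, the solvent of BP. The other arrays were from LNCaP cells exposed to BP at 70 µg/ml, 1 for 3 h and 1 for 24 h, once the cells had attached.

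Secretory and membrane proteins enter the ER through the SEC61 channel, where BiP and other chaperones assist their folding, and disulfide isomerases, recharged by ERO1 oxidases, form their disulfide bonds. Proteins that fail to fold are recognized by lectins such as OS9 and the EDEM proteins, passed back through the membrane by a complex of SEL1L, the ubiquitin ligase SYVN1 (HRD1), HERPUD1 and the derlins, and pulled out by the ATPase VCP for destruction by the proteasome. When unfolded proteins accumulate, the unfolded protein response raises the transcription of many of these genes through the transcription factors ATF6 and XBP1, which makes them common markers of ER stress. Prostate epithelium is a secretory tissue, and LNCaP cells retain the synthesis of secreted proteins such as prostate-specific antigen.

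The deposited value of each transcript cluster is on the log2 scale, so that a difference of 1 is a 2-fold difference, and differences of at least 2-fold in either direction were counted as higher or lower. With 1 array per condition there is no error estimate for any value, p-values are not given, and precision is limited by how few arrays there are. The 3 arrays had medians between 5.46 and 5.48 over all clusters. As a reference for the size of a difference, the SD over all genes was 0.20 at 3 h and 0.40 at 24 h, which describes the spread between genes and is no replicate error. Of 10 markers of LNCaP cells and prostate epithelium, 9 were measured, all with control values above the array median over genes. Of these, 8 were 2-fold or more below control at 24 h, beside 2.11% of all genes, and the median difference of the 9 was -1.50. Their part in the values that follow was not tested. Markers of other prostate cancer lines (0 of 5 above that median) and of fibroblasts, endothelium and blood (1 of 7) were dim in control cells. None of them was 2-fold higher or lower at 24 h, beside 1.53% and 2.11% of all genes. In bulk RNA of this kind, fewer cells of a type and less RNA per cell cannot be told apart.

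After 24 h of BP, 7 of the 42 genes were 2-fold or more above the control array, and 0 were 2-fold or more below it. These were HSPA5, DNAJB9, ERO1LB, ERO1L, SEL1L, EDEM1 and HERPUD1. Among all 19208 genes, 1.53% were higher and 2.11% lower by this measure. At a threshold of 1.5-fold, 12 of the 42 were higher and 0 lower, beside 4.49% and 4.04% of all genes. At 3-fold, only HSPA5 was counted, beside 0.458% of all genes. The median difference of the 42 genes was 0.26 on the log2 scale, and that of all genes was 0.00. A value above the control was listed for 29 of the 42, exactly the control value for 9 and a value below it for 4, whereas 25.4% of all genes lay above the control, 46.7% had exactly its value and 27.9% lay below. These counts moved with the scaling, which breaks the exact ties. They were 38 above and 4 below with arrays centred on their median, 29 and 13 on their 75th percentile, and 31 and 11 after quantile normalization. The same scalings moved the median of all genes to 0.0136, -0.0071 and 0.0065, in this order. The shares of all genes above and below control were not calculated for them, so the rescaled counts have no like comparison.

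At 3 h, 0 of the 42 genes were 2-fold higher and 0 were 2-fold lower, beside 0.344% and 0.0469% of all genes. None passed 1.5-fold in either direction, beside 1.55% and 0.401% of all genes, and the highest deposited difference at this time was 0.52, of HERPUD1. The median of the 42 genes was 0.04 at 3 h. It became -0.05 when each array was centred on its 75th percentile, a scaling that moved the median of all genes to -0.09, so the 3 h differences near 0 have no settled sign. As deposited, 23 genes lay above and 10 below control at 3 h, beside 31.2% and 27.6% of all genes. With that centring 15 lay above and 27 below, and the shares of all genes were not calculated for it. Between the 3 h and the 24 h array, 4 genes were 2-fold or more higher at the later time, namely HSPA5, ERO1L, SEL1L and ERO1LB, and 0 were lower, beside 0.807% and 2.4% of all genes. At 1.5-fold 9 genes were higher, beside 2.45% of all genes, and at 3-fold none was, beside 0.177%. The 3 comparisons share arrays and are not independent of one another.

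**Figure D1:**
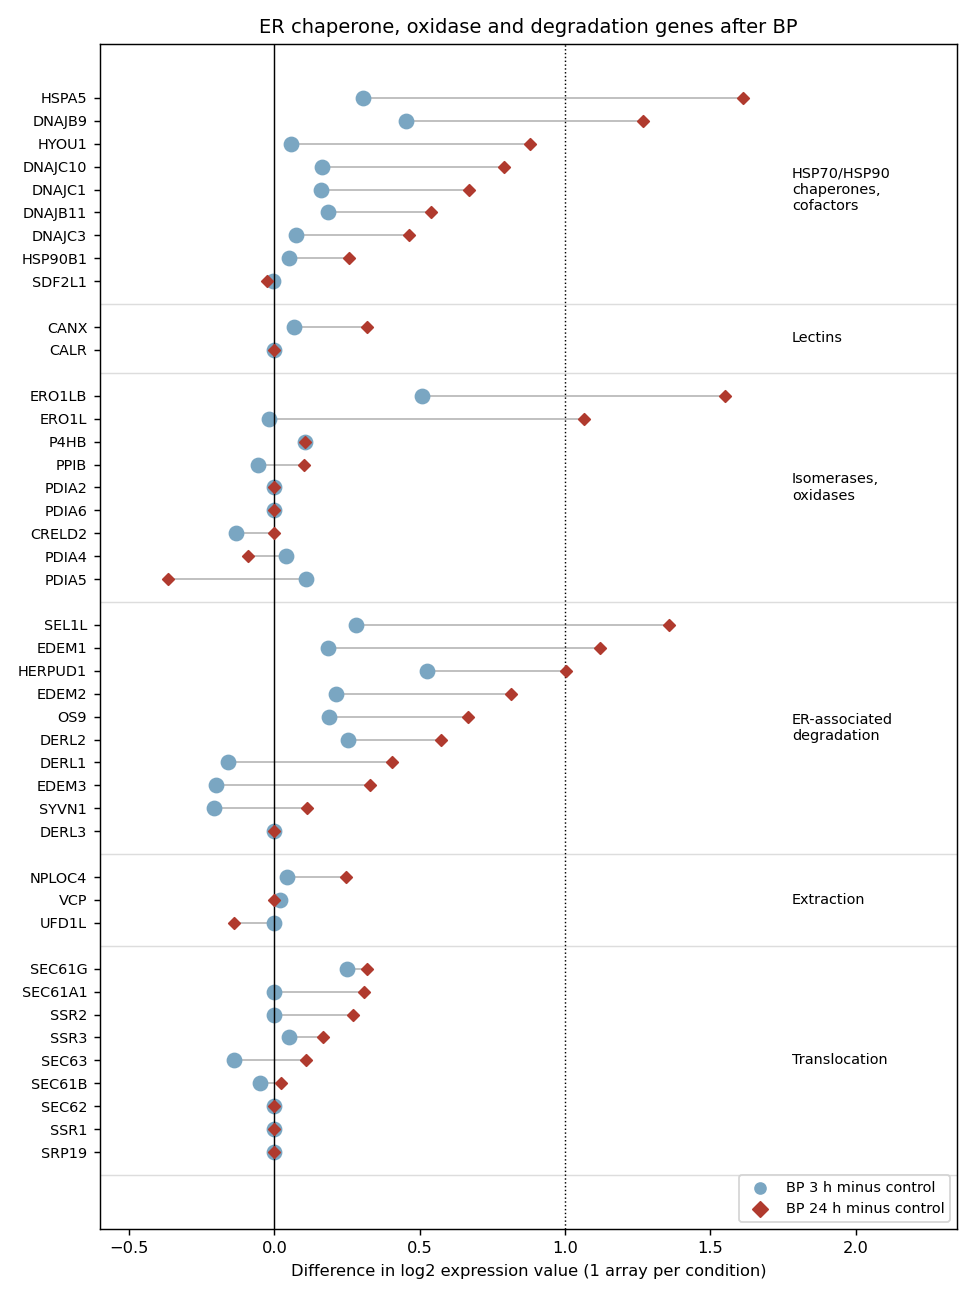
Difference in log2 expression value from the control array (x axis) for the 42 measured genes, grouped by role, with circles for 3 h and diamonds for 24 h of BP, 1 array each. The solid line marks no difference and the dotted line a 2-fold increase, which 7 genes reach at 24 h and none at 3 h.

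**Figure D2:**
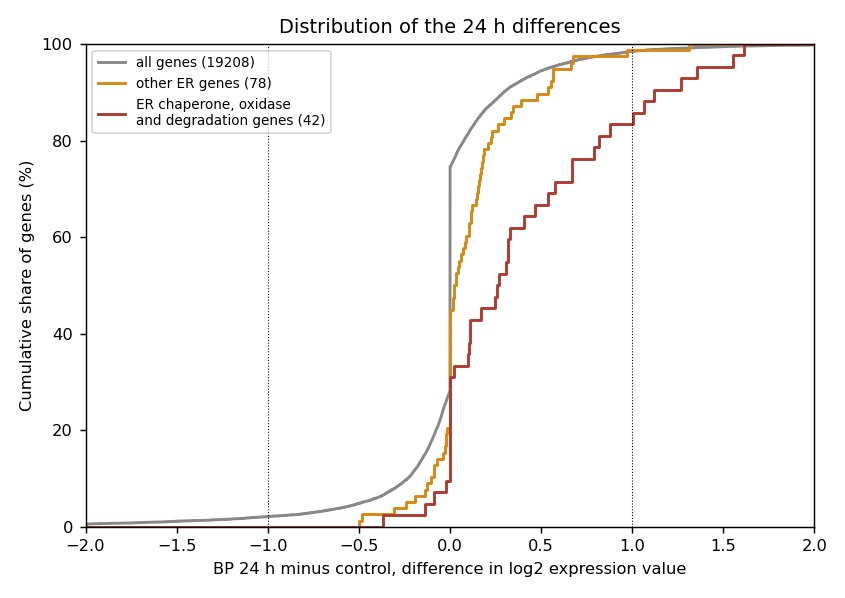
Cumulative share of genes (y axis, %) against the 24 h difference in log2 expression value (x axis) for all 19208 genes, the 42 ER chaperone, oxidase and degradation genes and 78 further ER genes. Dotted lines mark 2-fold in either direction; the curve of the 42 genes lies to the right, with a median of 0.26 beside 0.00 for all genes, and the vertical step at 0 holds genes with exactly the control value.

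The promoters of these genes were searched for the sequence elements through which the unfolded protein response acts. RefSeq promoter windows of build GRCh38.p14, from 250 bases before to 50 bases after the annotated start, were matched to 38 of the 43 genes, and the windows of DNAJC1, PDIA3, DERL1, DERL3 and UFD1L were not matched. The ER stress response element (ERSE), bound by ATF6 together with NF-Y, was searched on both strands as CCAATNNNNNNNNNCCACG, where N is any base. It was present in 6 of the 38 windows (15.8%), those of HSPA5, HSP90B1, CALR, CANX, CRELD2 and ERO1LB, and in 0.0769% of all 35116 windows. The related element ERSE-II, searched as ATTGGNCCACG, was present in 3 (7.89%), those of HYOU1, SDF2L1 and HERPUD1, and in 0.0541% of all windows. The core of the unfolded protein response element, TGACGTGG, which XBP1 and ATF6 can bind, was found in 5 (13.2%), those of HYOU1, DNAJC10, VCP, SEC62 and SRP19, against 0.729% of all windows. A core of the composite site bound by C/EBP and ATF factors, TGATGNAA, was found in 1 (2.63%), that of HERPUD1, against 3.62% of all windows. A match to these letters is a description of the sequence and shows no binding. The 9 windows with an ERSE or ERSE-II are shown because they hold genes with large and with no differences at 24 h. Each is printed from 5′ to 3′ on the strand of the gene with the matched elements in capitals, and an element that runs the other way appears as its reverse complement. In HYOU1, the first capital run is a TGACGTGG core that overlaps a reversed ERSE-II.
HSPA5 (chr9:125241381-125241419, minus strand): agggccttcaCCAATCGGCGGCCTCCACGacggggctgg
ERO1LB (chr1:236282173-236282208, minus strand): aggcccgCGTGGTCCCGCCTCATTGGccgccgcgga
HERPUD1 (chr16:56932015-56932045, plus strand): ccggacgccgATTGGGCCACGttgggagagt
HYOU1 (chr11:119057264-119057403, minus strand): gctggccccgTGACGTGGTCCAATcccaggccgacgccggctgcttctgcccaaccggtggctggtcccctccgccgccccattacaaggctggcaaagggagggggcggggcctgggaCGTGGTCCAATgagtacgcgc
CANX (chr5:179698768-179698806, plus strand): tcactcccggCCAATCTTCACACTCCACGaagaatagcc
HSP90B1 (chr12:103930206-103930349, plus strand): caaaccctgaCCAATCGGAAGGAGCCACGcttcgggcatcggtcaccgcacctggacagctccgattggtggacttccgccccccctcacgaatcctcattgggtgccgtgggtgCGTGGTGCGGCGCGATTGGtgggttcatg
CALR (chr19:12938374-12938412, plus strand): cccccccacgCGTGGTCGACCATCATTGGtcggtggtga
CRELD2 (chr22:49918544-49918582, plus strand): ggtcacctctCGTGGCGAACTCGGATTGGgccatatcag
SDF2L1 (chr22:21642104-21642134, plus strand): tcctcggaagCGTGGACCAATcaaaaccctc

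The 9 genes with an ERSE or ERSE-II had 24 h differences from -0.02 to 1.61. HSPA5 and ERO1LB, with 1 exact match to the ERSE each, had the largest differences of all 42 genes, 1.61 and 1.55. HERPUD1 and HYOU1, with ERSE-II, came next among these 9, with 1.00 and 0.88. HSP90B1, the only gene with 2 exact matches to the ERSE, had a difference of 0.26, and CANX a difference of 0.32. Imperfect copies of an element were not searched for, so the number of matches may miss elements of a promoter. CALR and CRELD2 were listed at exactly the control value at 24 h, and SDF2L1 had a difference of -0.02. The median of the 9 genes was 0.32, with 3 at least 2-fold higher, beside 1.53% of all genes. The median of the 29 genes with neither element was 0.25, with 4 at least 2-fold higher. SEL1L, DNAJB9, EDEM1 and ERO1L were thus higher at 24 h without either set of letters in the window searched.

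**Figure D3:**
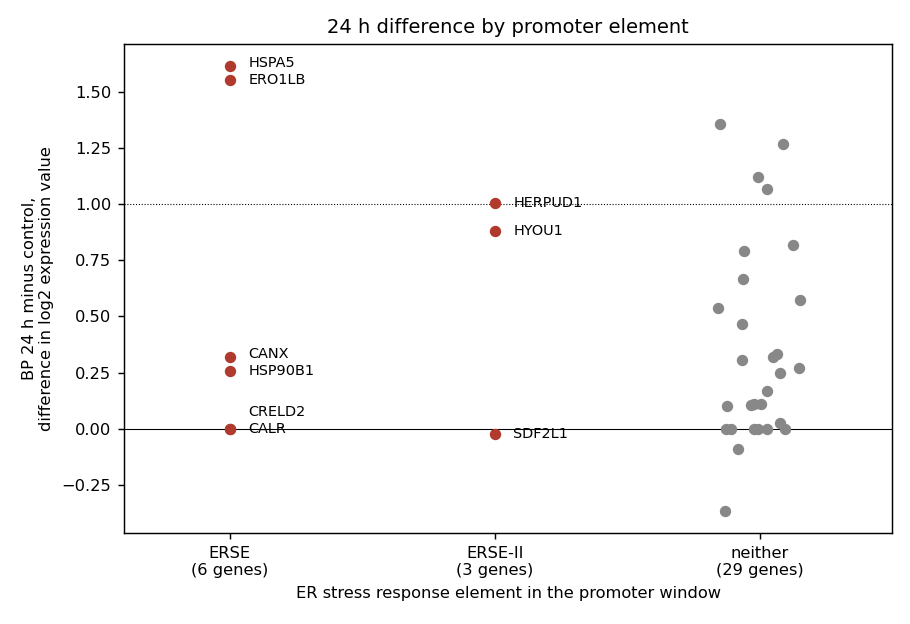
Difference in log2 expression value between 24 h of BP and control (y axis) for the 38 genes with a promoter window, split by whether the window holds an ERSE (6 genes), an ERSE-II (3 genes) or neither (29 genes), 1 point per gene. Both the highest difference, 1.61 for HSPA5, and values at 0 occur among genes with an ERSE, and the points of the third column are spread sideways only to separate them.

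Among the chaperones, HSPA5 had the largest difference. It encodes BiP (GRP78), the ER member of the HSP70 family and the chaperone whose level is the usual marker of the unfolded protein response. Its log2 values were 10.42 (control), 10.73 (3 h) and 12.04 (24 h), which is a 3.06-fold increase over control at the later time. At 3 h the fold was 1.23, so 18.9% of the log2 difference at 24 h was present at the earlier time (13.2% to 18.9% over the scalings tried). DNAJB9 encodes ERdj4, a J-domain cofactor of BiP that also represses IRE1. Its values were 6.02, 6.48 and 7.29 in the same order, and it was 2.41-fold higher at 24 h. HYOU1, which encodes the large HSP70-like protein GRP170 that exchanges nucleotide on BiP, was the gene closest below the 2-fold threshold. Its values were 9.30, 9.36 and 10.18, and the difference at 24 h was 0.88.

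The other J-domain partners of BiP also had higher values at 24 h, below the 2-fold threshold. DNAJC10 encodes ERdj5, a J-domain protein that reduces disulfide bonds of proteins to be degraded, and its difference was 0.79. DNAJC1 (ERdj1) had a difference of 0.67, DNAJB11 (ERdj3) one of 0.54 and DNAJC3, the gene of P58IPK, one of 0.46. The ER HSP90 protein GRP94, encoded by HSP90B1, differed by 0.26, from 11.15 in control cells to 11.20 at 3 h and 11.41 at 24 h. SDF2L1, whose product binds ERdj proteins and slows protein aggregation, was the exception of this group, with 6.80 in the control, 6.79 at 3 h and 6.77 at 24 h. Of these 9 chaperones and cofactors, 2 passed 2-fold and 5 passed 1.5-fold at 24 h, all upwards. Of all genes, 1.53% and 4.49% were higher at these thresholds. The median difference of the 9 was 0.67 at 24 h and 0.16 at 3 h. Of the 9, 8 had values in the order control, 3 h, 24 h, beside 10.4% of all genes. The count was 5 with 75th-percentile centring (beside 11.2% of all genes) or quantile normalization (beside 14.9%).

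The lectin chaperones retain newly made glycoproteins in the ER until they are folded. Calnexin, the membrane-bound form encoded by CANX and measured as protein elsewhere in this study, had log2 values of 11.04 (control), 11.11 (3 h) and 11.36 (24 h). The fold at 24 h was 1.25, within the 2-fold limit. CALR, which encodes the soluble form calreticulin, was listed at 10.40 on each of the 3 arrays, with no difference in any digit.

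The enzymes of disulfide formation are described as oxidases first and isomerases next. DNAJC10, whose product reduces disulfide bonds, is given above with the J-domain proteins and had a 24 h difference of 0.79. ERO1L and ERO1LB encode ERO1-Lα and ERO1-Lβ, the oxidases that pass electrons from disulfide isomerases to oxygen. ERO1L had values of 7.67 in the control, 7.65 at 3 h and 8.73 at 24 h, and was 2.09-fold higher at 24 h with a difference of -0.02 at 3 h. ERO1LB had values of 4.25, 4.75 and 5.80 on the same arrays, and was 2.93-fold higher at 24 h. It was dimmer than the median of all genes, 6.04, on every array, and it is therefore left out when only genes above that level are kept. ERO1L, by contrast, lay above it on all 3 arrays.

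None of the measured isomerases was 2-fold higher or lower at either time. Few of all genes were, with 1.53% higher and 2.11% lower at 24 h and 0.344% and 0.0469% at 3 h. P4HB, the gene of the prototype isomerase PDI, had values of 11.00 in control cells and 11.11 at both later times, a fold of 1.08. A second P4HB cluster was listed at 11.07 on each of the 3 arrays. PDIA6 and the pancreas-type isomerase gene PDIA2 each had the same value on all arrays, 10.94 and 5.46. PDIA4, the gene of ERp72, differed by 0.04 at 3 h and -0.09 at 24 h. PDIA5 had the lowest 24 h difference of the 42 genes, -0.37, with values of 8.40 in the control, 8.51 at 3 h and 8.03 at 24 h. CRELD2, an ER protein gene, had the control value of 7.43 again at 24 h after 7.29 at 3 h. PPIB, the gene of the prolyl isomerase cyclophilin B, differed by 0.10 at 24 h. Over the 9 measured genes of this group, 2 were at least 2-fold higher at 24 h, both of them oxidases, beside 1.53% of all genes. The median difference of the 9 was 0.00.

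**Figure D4:**
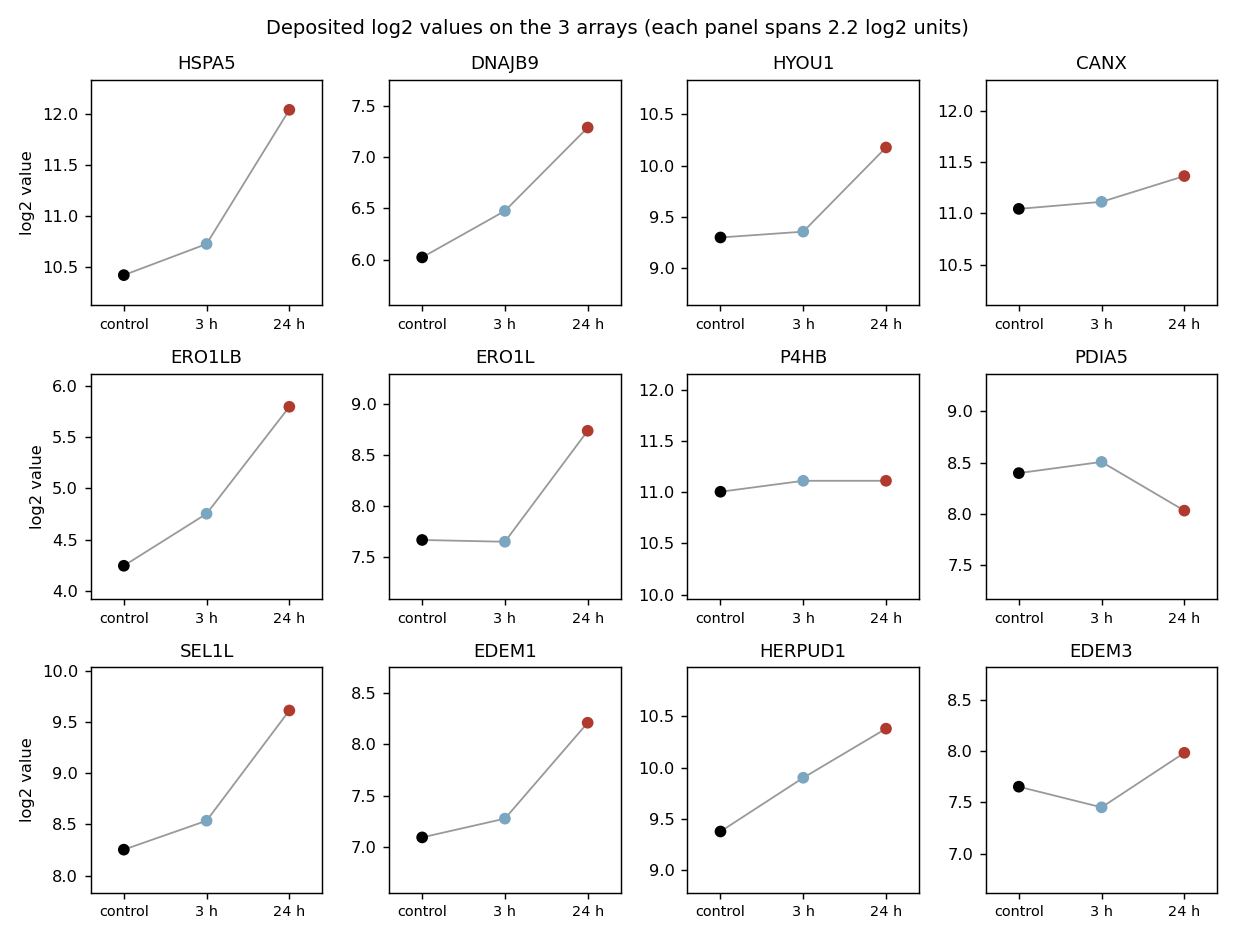
Deposited log2 values (y axis) on the control, 3 h and 24 h arrays (x axis) for 12 genes, 1 point per array and each panel spanning the same range on the log2 scale. HSPA5, DNAJB9, ERO1LB, SEL1L, EDEM1 and HERPUD1 have values that increase from control to 3 h to 24 h, while ERO1L is at the control level at 3 h and P4HB stays between 11.00 and 11.11.

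Genes of ER-associated degradation had values above control at 24 h in 9 of 10 cases, beside 25.4% of all genes. SEL1L encodes the scaffold of the ubiquitin ligase complex that removes misfolded proteins, with log2 values of 8.25 (control), 8.53 (3 h) and 9.61 (24 h), or 2.56-fold higher at the later time. HERPUD1, whose ubiquitin-like product helps to assemble this complex, had values of 9.38, 9.90 and 10.38. Its 24 h difference of 1.00 lay just inside the 2-fold threshold, and it fell outside when the arrays were centred on their 75th percentile or quantile normalized. As deposited, HERPUD1 had the highest 3 h difference of the 42 genes, but after quantile normalization ERO1LB (0.55) was above HERPUD1 (0.44). Of the 24 h difference of HERPUD1, 52.2% was present at 3 h as deposited, and 43.4% to 52.2% over the settings tried. The deposited share was 35.8% for DNAJB9 (28.7% to 35.8% over the settings), 32.7% for ERO1LB (27.0% to 34.8%) and 20.8% for SEL1L (14.1% to 20.8%). For EDEM1 it was 16.4%, and it ranged from 8.25% to 16.4%. SYVN1, which encodes the ligase HRD1 itself, had values of 7.24 in the control, 7.03 at 3 h and 7.35 at 24 h, a 24 h difference of 0.11.

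The EDEM proteins trim mannose from glycoproteins that fail to fold. EDEM1 had values of 7.09 in the control, 7.27 at 3 h and 8.21 at 24 h and was 2.17-fold higher at 24 h. EDEM2 had values of 6.42, 6.63 and 7.24, which gives 1.76-fold at 24 h, and EDEM3 had values of 7.65, 7.45 and 7.98, which gives 1.26-fold. The order within the family was thus EDEM1, EDEM2 and EDEM3 by difference at 24 h, and whether these differences stand apart from one another cannot be tested without replicates. OS9, which encodes a lectin that delivers trimmed glycoproteins to SEL1L, differed by 0.67 at 24 h. The derlins, membrane proteins that form part of the exit channel, also ranged widely. DERL2 differed by 0.57, DERL1 by 0.40, and DERL3 was listed at 6.23 on all 3 arrays. Of the 10 degradation genes, 3 passed 2-fold and 5 passed 1.5-fold at 24 h, all upwards, with a median of 0.62. Of all genes, 1.53% were higher by 2-fold and 4.49% by 1.5-fold.

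The cytosolic machinery that extracts proteins from the membrane had values close to control. VCP, the gene of the p97 ATPase, was listed at 10.56 in control cells and at 24 h, and at 10.58 at 3 h. The cofactor gene UFD1L had values of 8.24, 8.24 and 8.11 on the control, 3 h and 24 h arrays. NPLOC4, the gene of the other cofactor, had values of 9.25, 9.29 and 9.49. None of the 3 genes passed 1.5-fold. Of all genes, 4.49% were higher and 4.04% lower by 1.5-fold at 24 h, and 1.55% and 0.401% at 3 h. A count of 0 of 3 is near these shares.

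The translocation genes were likewise within 1.5-fold at both times. So were most genes, as 4.49% of all genes were higher and 4.04% lower at 24 h, and 1.55% and 0.401% at 3 h. The SEC61 channel is built of 3 subunits, and their 24 h differences were 0.31 for the pore-forming SEC61A1, 0.02 for SEC61B and 0.32 for SEC61G. SEC61G had the larger part of this difference at 3 h, with values of 8.15, 8.40 and 8.46, whereas SEC61A1 was listed at 9.96 in control cells and at 3 h and at 10.27 at 24 h. SEC63, a J-domain protein that recruits BiP to the channel, differed by 0.11, and SEC62, its partner, was listed at 7.36 on all 3 arrays. The translocon-associated genes SSR2 and SSR3 differed by 0.27 and 0.17. SSR1 and SRP19, the latter a subunit of the signal recognition particle, were each listed at a single value, 10.21 and 8.18. Over the 9 genes the 24 h median was 0.11.

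Among the 42 genes, 19 (45.2%) had values in the order control, 3 h, 24 h, beside 10.4% of all genes. The count moved with the scaling, from 13 of the 42 (beside 14.9% of all genes) after quantile normalization to 21 of the 42 (beside 14.8%) with arrays centred on their median. With genes above the median level alone, the count was 18 of 40, beside 18.3% of all genes above that level. As deposited, SDF2L1 had the reverse order, 12 genes had an exact tie between at least 1 pair of arrays and 10 were not ordered. The difference of SDF2L1 between 24 h and 3 h was -0.02 and turned positive under the 3 other scalings, while its values at both times lay below control under each of them. Exactly equal values on all 3 arrays were deposited for 7 of the 42 (16.7%), namely CALR, PDIA2, PDIA6, DERL3, SEC62, SSR1 and SRP19, and for 34.2% of all genes. The reason for such ties was not tested.

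A wider set of 85 ER genes for chaperone cofactors, glycan processing, redox enzymes, degradation and translocation was examined for comparison, of which 78 were measured. Of these, 1 was 2-fold or more higher and 0 lower at 24 h, beside 1.53% and 2.11% of all genes, and at 1.5-fold 4 were higher and 0 lower, beside 4.49% and 4.04%. These counts are close to the shares of all genes. The 1 gene was HSPA13, which encodes an HSP70-like protein of the microsome, with a difference of 1.31. The next were ERLEC1, which encodes a lectin that binds SEL1L (0.97), the signal recognition particle receptor gene SRPR (0.68) and CLGN, a calnexin-like chaperone gene (0.67). These 3, and SERP1, were named after their values had been seen. The median over the 78 genes was 0.03, beside 0.26 for the 42 genes and 0.00 for all genes. The highest median by role, 0.13, was that of the 24 genes for translocation, the signal peptidase and the oligosaccharyltransferase. SERP1, which encodes a translocon stabilizer, was the 1 gene of this set whose promoter held an ERSE among 70 windows, and it differed by 0.57.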

How the data were processed

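The authors hybridized RNA of 3 LNCaP cultures to Affymetrix Human Gene ST arrays and deposited log2 values per transcript cluster (33297 clusters). RMA in Affymetrix Expression Console is named in the submitters' processing notes, whereas the Methods describe MAS5.0 followed by GeneSpring and scaling of chips to the median. It was not settled which of these made the values. The authors also deposited their own comparisons, which hold log2 ratios and, in part, fold changes. Only the gene symbol annotation of 1 of these tables was used.

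Clusters with 1 symbol (20087) gave 19208 genes. Of several clusters of a gene, the one with the highest mean was used. Differences were BP minus control and 24 h minus 3 h, without further normalization, a filter or a test. The genes, lists and rules were chosen with earlier results of these data known. All measured genes of the list are given. Those past 2-fold, those whose proteins the study assayed and the extremes of each role group are given with 3 values. Alternatives changed the scaling, the cluster rule, the level filter, the threshold and the handling of ties. RefSeq promoters (GRCh38.p14) and symbols were matched by symbol or alias. The calculation was tested on simulated data. Python 3.11.15, numpy 2.4.6, pandas 2.3.3 and matplotlib 3.10.9 were used.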

Additional observations from a re-analysis of the deposited data

Results flagged for a closer look

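A limit of 0.1 on the log2 scale, chosen after the values were seen, was used to single out genes with differences of opposite sign at 3 h and 24 h. There were 5 such genes, and the difference between the times was not tested because each time has 1 array. The share of all genes that meet this limit was not calculated, so the count is no result about these genes as a set. PDIA5 lay above control by 0.11 at 3 h and had a 24 h difference of -0.37. With other scalings its 3 h difference was as small as 0.0177. The other 4 lay below control at 3 h and above it at 24 h. These were SYVN1 (-0.21 and 0.11), EDEM3 (-0.20 and 0.33), DERL1 (-0.16 and 0.40) and SEC63 (-0.14 and 0.11).

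Clusters that carry more than 1 symbol were not used in the comparisons. The pair annotated to PDIA3 and PDIA3P lay above control at 24 h by 0.10 and 0.0871, with the same differences at 3 h.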

How the results depend on the processing

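No paired analysis was possible because each condition has 1 array. No value can be checked against replicates, and ERO1LB and PDIA2 were not above the median level of all genes. The number of the 42 genes at least 2-fold higher at 24 h was 7 as deposited and with arrays centred on their median or clusters averaged, 6 with arrays centred on their 75th percentile or quantile normalized (without HERPUD1), and 6 with genes above the median level alone (without ERO1LB, and with 40 of the 42 genes left). It was 12 at 1.5-fold and 1 at 3-fold. As deposited, 1.53% of all genes were higher at 2-fold, 4.49% at 1.5-fold and 0.458% at 3-fold. The number higher at 24 h than at 3 h was 4, 9 at 1.5-fold and 0 at 3-fold, beside 0.807%, 2.45% and 0.177% of all genes as deposited. It was 5 with 75th-percentile centring or quantile normalization, which add EDEM1, and 3 without ERO1LB in the level filter. Shares of all genes past these thresholds were not calculated for the other scalings, the cluster rule or the 10021 genes above the median level. Of the 78 other ER genes, 4 were higher at 24 h at 1.5-fold and 0 at 3-fold, beside 4.49% and 0.458% of all genes. No gene of either list was 2-fold lower than control at 24 h under any setting, beside 2.11% of all genes as deposited. Over the scalings, cluster rule, level filter and removal of exact ties, the 24 h median of the 42 genes ranged from 0.22 to 0.33 and the 3 h median from -0.05 to 0.07. Centring on the 75th percentile reversed the sign of 8 of the 3 h differences, each at most 0.0736 in size, and of none at 24 h; quantile normalization reversed 7 and 1.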

Other observations

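The cluster annotated to FANCG and VCP together had log2 values of 7.28 (control), 7.48 (3 h) and 6.25 (24 h), a 24 h difference of -1.03, while the cluster annotated to VCP alone was listed 0.00 from control.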
